A study of Homo sapiens with 9 samples.

Results

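The 32 genes described here are known targets of the transcription factor SRF, of the coactivator YAP with its TEAD partners, and of the early response to growth factors and serum, among 38146 gene names in the count table. They were chosen by name with earlier results of these data known, among them lower CNN1 and a tendency of THBS1 and NR4A3 to rise. They form 3 groups: 11 contractile and cytoskeletal SRF targets with SRF itself, 11 YAP-TEAD targets with TEAD1, and 10 immediate early genes. Their mRNA was measured by sequencing polyA RNA from the human osteosarcoma line U-2 OS in 9 libraries. All cells received Cas9 and then 1 synthetic guide RNA (crRNA): a non-targeting guide (NTC), a guide against XCR1, a chemokine receptor gene of dendritic cells that serves as a control for DNA cutting (crXCR1), or a guide against SUGP1, a nuclear protein thought to bind RNA (crSUGP1). Each guide was used in 3 independent experiments with 1 library per guide, and the cells were edited as populations from individual flasks, with no cloning step described. The labels give 72 h from guide transfection to fixation for assay plates, and no separate time is stated for the flasks.

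SRF binds a short AT-rich element, the CArG box, and works with cofactors. MRTF proteins are held in the cytoplasm by monomeric actin and take SRF to genes of the actin cytoskeleton, whereas ternary complex factors respond to ERK signalling and take SRF to immediate early genes such as EGR1 and FOS. YAP and TAZ enter the nucleus when the Hippo kinases are inactive or when cells spread under tension, and there bind TEAD factors at genes such as CCN1, CCN2 and ANKRD1. Immediate early genes need no new protein synthesis for their induction, and their transcripts are short-lived. In spread, adherent mesenchymal cells such as osteosarcoma lines these programmes run together.

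Promoter windows from RefSeq (GRCh38.p14, 250 bases before to 50 bases after a start) were found for 26 of the 32 genes, 40 windows in all, since several genes have more than 1 start. The windows were searched on both strands for the CArG box, for GGAATG, the letters TEAD factors prefer, and for TGACG, the core of the cyclic AMP response element. The CArG box occurred in 1.29% of all 35116 promoter windows and in 5 of the 40 windows of these genes, those of ACTG2, FLNA, SRF, EGR1 and EGR2. GGAATG occurred in 14% of all windows and in 8 of the 14 windows of the YAP-TEAD group. TGACG occurred in 24.6% of all windows and in 7 of the 11 windows of the immediate early group. The other groups also held these letters. GGAATG was in 4 of the 15 contractile and 2 of the 11 immediate early windows, and TGACG in 5 of the 15 contractile and 3 of the 14 YAP-TEAD windows. The stretches below were chosen because they show examples of the letters searched for, and because CNN1, THBS1 and NR4A3 are the genes on which the comparisons turned. Capitals mark the CArG box in EGR1, SRF, FLNA and ACTG2, GGAATG in CCN2, ANKRD1 and THBS1, and TGACG on either strand in NR4A3. All are written on the strand of the gene.
EGR1: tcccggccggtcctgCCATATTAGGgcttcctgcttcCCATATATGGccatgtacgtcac
SRF: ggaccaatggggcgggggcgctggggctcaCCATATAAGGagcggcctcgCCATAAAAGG
FLNA: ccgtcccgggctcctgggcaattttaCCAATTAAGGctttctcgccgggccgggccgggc
ACTG2: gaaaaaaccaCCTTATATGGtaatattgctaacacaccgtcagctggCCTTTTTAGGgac
CCN2: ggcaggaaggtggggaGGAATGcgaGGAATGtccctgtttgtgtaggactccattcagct
ANKRD1: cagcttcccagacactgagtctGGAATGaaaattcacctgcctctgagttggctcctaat
THBS1: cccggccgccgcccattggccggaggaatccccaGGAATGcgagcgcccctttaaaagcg
NR4A3: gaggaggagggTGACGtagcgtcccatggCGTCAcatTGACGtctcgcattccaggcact
CNN1: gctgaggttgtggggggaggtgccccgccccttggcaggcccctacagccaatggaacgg
The stretches lie at chr5:138465359-138465418 (plus strand) for EGR1, chr6:43171209-43171268 (plus) for SRF, chrX:154374695-154374754 (minus) for FLNA, chr2:73892888-73892947 (plus) for ACTG2, chr6:131951433-131951492 (minus) for CCN2, chr10:90921178-90921237 (minus) for ANKRD1, chr15:39580999-39581058 (plus) for THBS1, chr9:99821765-99821824 (plus) for NR4A3 and chr19:11538731-11538790 (plus) for CNN1. EGR1 and SRF each carry the CArG box at 2 places, starting at bases -105 and -83 from the start for EGR1 and at -30 and -10 for SRF. NR4A3 carries TGACG at bases -109, -91, -83 and -25, the last outside the stretch shown, and 1 copy of GGAATG on the other strand at -73. The CNN1 window held none of the CArG box and none of GGAATG, which says only that these letters are not in that window.

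As a check of the labels, the crSUGP1 libraries held 7.88, 7.69 and 6.52 CPM of SUGP1 mRNA (CPM being a share of the library's counts, scaled by TMM), and the 6 control libraries 28.2 to 31.6 CPM. The libraries held 68712738 to 107952835 counts. Markers of the labelled cells were present, with VIM at a mean of 2671 CPM, COL1A1 at 765 CPM and RUNX2 at 22.7 CPM in NTC, while COL1A2 at 0.172 CPM and TWIST1 at 0 CPM were near or at 0. The 8 mesenchymal and osteoblast markers together made 4254 to 4717 CPM in NTC libraries, 4297 to 4584 CPM in crXCR1 libraries and 3996 to 4237 CPM in crSUGP1 libraries, so the crSUGP1 range lay below both control ranges. Of the other marker lists, the 6 mature smooth muscle genes summed to 12.2 to 17.8 CPM, the 3 epithelial genes to 4.50 to 5.30 CPM, the 3 endothelial genes to 3.22 to 5.93 CPM and the 3 leukocyte genes to 0.43 to 0.794 CPM, with CD3E at 0. In bulk RNA, a change in the number of cells that express a gene and a change in its RNA per cell cannot be told apart.

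In SUGP1-edited cells, CNN1 (calponin 1, an actin-binding protein of smooth muscle) was lower than in both controls. It was the sole gene of the 31 tested that edgeR called without regard to the experiment. With the experiments taken into account, edgeR also called NR4A3 (an orphan nuclear receptor) higher against both controls. THBS1 (thrombospondin 1, a matrix glycoprotein) was then called higher against crXCR1 alone, and EGR3 (a zinc-finger factor) lower against NTC alone. DESeq2, without regard to the experiment, called CNN1 against both controls, and THBS1 and NR4A3 against crXCR1. Most other genes moved by a small amount. Of the members, 23 of 31 lay above NTC and 24 of 31 above crXCR1, beside 10326 and 10376 of all 21071 genes. The median log2 fold change of the members was 0.09 against NTC and 0.12 against crXCR1, beside medians of -0.004 and -0.003 over all 21071 genes tested. The 2 comparisons share the crSUGP1 libraries and are not independent. CNN1, THBS1 and NR4A3 were known from these data when the members were chosen. Calls, counts and medians that include them are therefore not independent evidence.

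**Figure D1:**
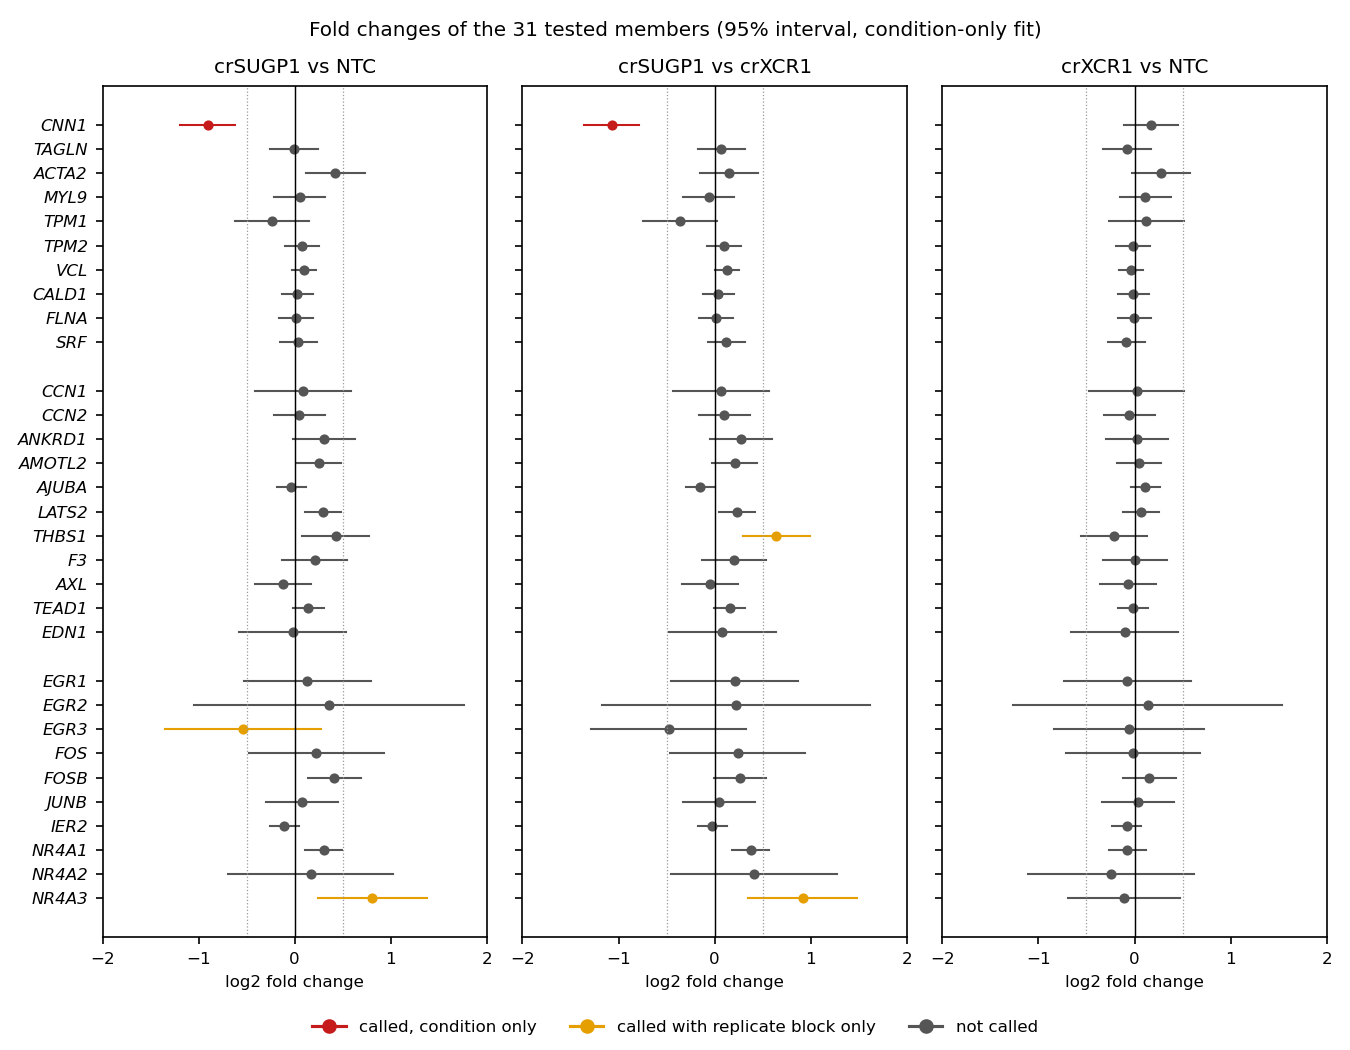
Log2 fold change (points) with its 95% interval (lines) of the 31 tested members in the 3 comparisons, from the fit with guide as its sole term. Dotted lines mark 0.5 in either direction. CNN1 lies at -0.90 and -1.07 in the crSUGP1 comparisons, and NR4A3 has the highest point estimates, 0.81 and 0.92.

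A gene was called changed at an adjusted p of at most 0.05 (edgeR quasi-likelihood test, Benjamini-Hochberg over all 21071 genes) and a log2 fold change no smaller than 0.5 in either direction. With guide as the sole term, 0.783% of all genes were called for crSUGP1 against NTC, 0.774% for crSUGP1 against crXCR1 and 0% for crXCR1 against NTC. Of the 31 tested members, 1, 1 and 0 were called. With the experiment added as a replicate block, which compares libraries within an experiment, the shares over all genes were 2.85%, 3.9% and 0.00475%. Of the members, 3, 3 and 0 were called in the paired fit. Without a fold minimum, the paired fit put 15.7% of all genes past the adjusted p against NTC and 21.7% against crXCR1. Of all genes past it, 1417 were higher and 1888 lower against NTC, and 2105 higher and 2472 lower against crXCR1. The members past it were 12 of 31 (38.7%) against NTC, 9 higher and 3 lower, and 13 of 31 (41.9%) against crXCR1, 10 higher and 3 lower. The count without a fold minimum was an addition made with the data in view. Most of these differences were below 0.5 on the log2 scale.

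The contractile genes span a wide range of levels. Per kilobase of exon, FLNA (filamin A, an actin cross-linker) was the most abundant in NTC at 254 CPM per kb, followed by TPM2 (a tropomyosin) at 109.6 and MYL9 (a regulatory light chain of myosin) at 43.6. SRF stood at 19.3, TPM1 at 16.6, VCL (vinculin, of focal adhesions) at 15.1, CALD1 (caldesmon) at 13.5, TAGLN (transgelin) at 7.57 and CNN1 at 5.26 CPM per kb. The smooth muscle actins were far lower, with ACTA2 at 0.648 and ACTG2 at 0.0212 CPM per kb. The lengths merge all annotated exons of a gene, 14700 bases for TPM1 and 4231 for SRF, and can exceed those of the expressed mRNA. The order therefore depends on the annotation, and by CPM alone TPM1 (245 in NTC) was above SRF (81.7). ACTG2 had 3 to 10 counts per library (0.0316 to 0.124 CPM) and was not tested. ACTA2 and ACTG2 encode nearly identical actins, so the split of reads between them is uncertain.

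CNN1 lies on the short arm of chromosome 19 (GRCh38, 11538767 to 11550323, plus strand). Its level was 14.4, 13.8 and 16.6 CPM in NTC, 16.0, 14.3 and 20.0 CPM in crXCR1, and 8.28, 7.48 and 8.18 CPM in crSUGP1 libraries. The lowest control library was well above the highest crSUGP1 library, and the 3 crSUGP1 values lay close together. The log2 fold change was -0.90 (SE 0.13, adjusted p = 0.00904) against NTC and -1.07 (SE 0.13, adjusted p = 0.00352) against crXCR1, while crXCR1 differed from NTC by 0.17 (95% interval -0.11 to 0.45). Within experiments 1, 2 and 3 the differences from NTC were -0.80, -0.88 and -1.02, so every experiment showed the same direction. The call against NTC was lost without crSUGP1 library 2 (adjusted p = 0.0646, log2 fold change -0.86). With all 3 libraries of an experiment left out, it was lost without experiment 1 (-0.95, adjusted p = 0.402) and without experiment 2 (-0.91, adjusted p = 0.264), and the call against crXCR1 likewise (-1.13, adjusted p = 0.272, and -1.13, adjusted p = 0.16). The direction was the same in each of these fits, and those without an experiment had 6 libraries. Without experiment 3, also with 6 libraries, CNN1 was called lower against both controls. In the paired fit with all libraries kept, CNN1 was at -0.89 (adjusted p = 8.38e-07) against NTC. Against crXCR1 it was at -1.06 (adjusted p = 1.2e-07) in that fit. Guide accounted for 91.9% of the variance of CNN1 on the log2 scale and experiment for 6.1%.

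Of the other contractile genes tested, none was called in either fit. VCL, at 161, 164 and 160 CPM in crSUGP1 libraries, lay above all 6 controls (139.9 to 157.9 CPM), but by 0.10 and 0.13 on the log2 scale. TAGLN, a calponin family member often measured beside CNN1, was at 51.6, 52.4 and 44.7 CPM in NTC and at 55.3, 51.3 and 41.6 CPM in crSUGP1 libraries. Its fold change against NTC was -0.004 with a 95% interval of -0.25 to 0.24. The groups overlapped, and the interval excludes a change as large as that of CNN1. MYL9, TPM2, CALD1, FLNA and SRF had log2 fold changes between -0.06 and 0.12 against either control, none with an adjusted p under 0.05 in either fit.

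TPM1 was lower in every experiment by less than the 0.5 minimum. It was at 228, 215 and 290.4 CPM in NTC, 232, 243 and 324 CPM in crXCR1, and 188, 181 and 254 CPM in crSUGP1 libraries. The groups overlapped because all 3 libraries of experiment 3 were high, but within each experiment crSUGP1 was the lowest of the 3. The paired log2 fold change was -0.24 against NTC (adjusted p = 0.00296) and -0.36 against crXCR1 (adjusted p = 9.76e-05). ACTA2 was at 3.61, 3.00 and 4.32 CPM in NTC, 4.40, 4.13 and 4.74 CPM in crXCR1, and 4.46, 5.17 and 5.09 CPM in crSUGP1 libraries. It was higher than NTC in the paired fit (0.43, adjusted p = 0.00861), but not past the threshold against crXCR1 (0.15, adjusted p = 0.271). The ACTA2 gene shares bases with FAS, a p53-responsive death receptor gene on the other strand, which went from a mean of 14.4 CPM in NTC and 17.5 CPM in crXCR1 to 23.6 CPM in crSUGP1. AL157394.3, which overlaps ACTA2 on the same strand, had a mean of 4.49 CPM in crSUGP1, beside 3.48 CPM in NTC and 4.37 CPM in crXCR1 (paired adjusted p = 0.0394 against NTC and 0.846 against crXCR1), and a strand setting could not separate its reads from those of ACTA2. The strand setting of the counting is not stated, and whether reads of FAS or AL157394.3 enter the ACTA2 count was not tested.

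**Figure D2:**
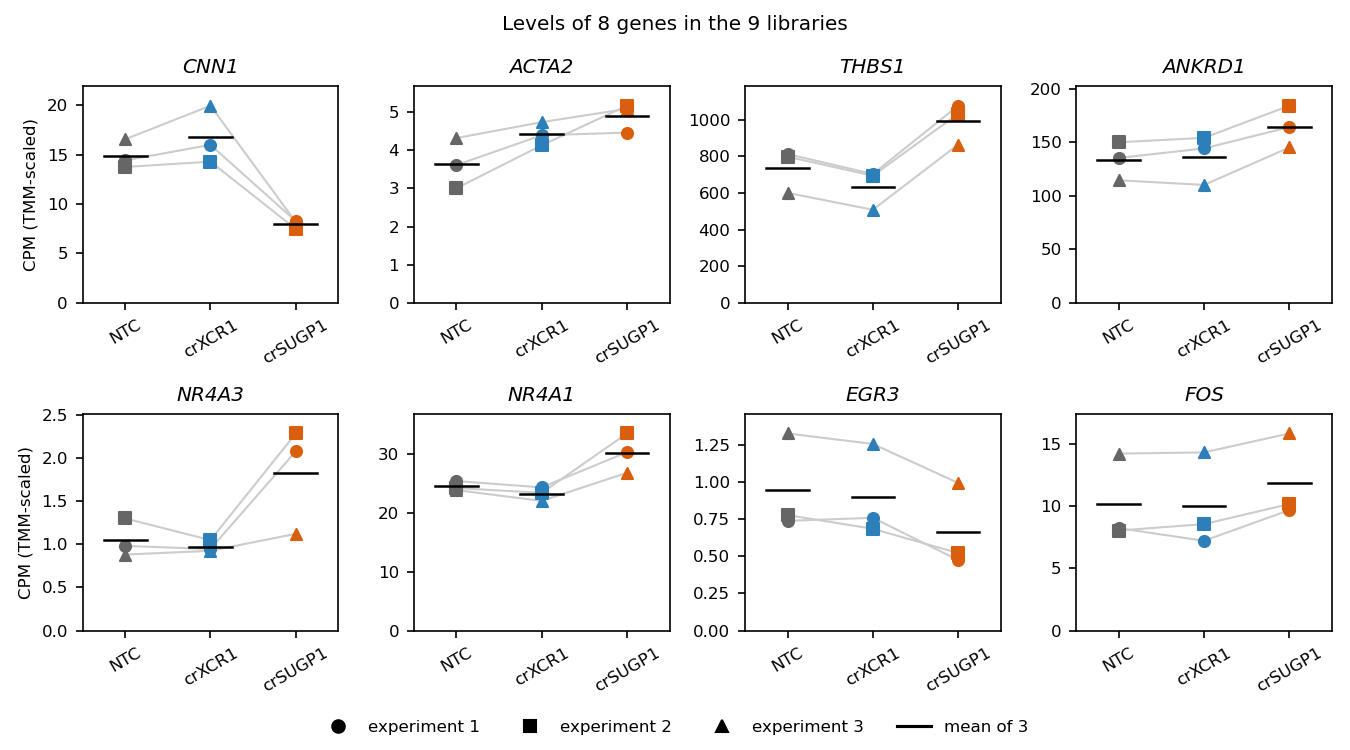
CPM (linear axis from 0) of 8 members in the 9 libraries, by guide, with symbols for the experiment, grey lines that join libraries of the same experiment and a black bar for the mean of 3. CNN1 is below all controls in the crSUGP1 libraries (7.48 to 8.28 CPM), THBS1 above all controls (864 to 1076 CPM), and for FOS and EGR3 experiment 3 lies above the other experiments with every guide.

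Among YAP-TEAD targets, CCN2 (connective tissue growth factor) was the highest per kilobase of merged exons, at 148 CPM per kb in NTC. AXL (a receptor tyrosine kinase) followed at 102, CCN1 (a secreted matricellular protein) at 92.8, THBS1 at 80.4 and ANKRD1 (an ankyrin-repeat cofactor) at 74.4 CPM per kb. AJUBA (a LIM protein that binds LATS kinases) stood at 29.5, TEAD1 at 19.8, AMOTL2 (angiomotin-like, a YAP inhibitor) at 18.0, EDN1 (endothelin 1) at 13.8 and LATS2 (a Hippo kinase) at 9.76 CPM per kb. F3 (tissue factor) was low at 0.948 CPM per kb.

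THBS1 (chromosome 15, 39581079 to 39599466, plus strand) was at 812, 797 and 599.9 CPM in NTC, 703, 694 and 508 CPM in crXCR1, and 1076, 1032 and 864 CPM in crSUGP1 libraries. Every crSUGP1 library was above every control, and in each group the library of experiment 3 was the lowest. Without the block the log2 fold change was 0.43 against NTC (SE 0.16, adjusted p = 0.261) and 0.64 against crXCR1 (SE 0.16, adjusted p = 0.0871), neither past the threshold. In the paired fit it was 0.44 (SE 0.05, adjusted p = 3.08e-05) and 0.65 (SE 0.05, adjusted p = 4.38e-07), so that it was called against crXCR1 alone, the difference from NTC being under the fold minimum. The crXCR1 level was below NTC by -0.22 in the paired fit (adjusted p = 0.113), with within-experiment differences of -0.21, -0.20 and -0.24. DESeq2 called THBS1 higher against crXCR1 (0.65, adjusted p = 0.00284).

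ANKRD1, AMOTL2 and LATS2 were higher against both controls in the paired fit by less than the fold minimum. ANKRD1 was at 135, 149.9 and 114 CPM in NTC, 144, 154 and 110.1 CPM in crXCR1, and 164, 184 and 145 CPM in crSUGP1 libraries, higher within every experiment although the groups overlapped. Its paired log2 fold changes were 0.31 (adjusted p = 6.02e-04) and 0.28 (adjusted p = 9.8e-04). AMOTL2 rose by 0.25 (adjusted p = 0.00267) and 0.20 (adjusted p = 0.00816), and LATS2 by 0.30 (adjusted p = 0.00215) and 0.23 (adjusted p = 0.00907). ANKRD1, THBS1 and AMOTL2 carry GGAATG upstream of a start, and LATS2 carries it at base 10 after a start. CCN2 (at 3 places), AJUBA, AXL and EDN1 also carry it upstream, and none of these passed in either fit. Whether these letters bear on the levels was not tested.

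CCN1 and CCN2, the YAP targets most often used as readouts, did not differ between guides past the threshold. CCN1 was at 405, 369 and 255 CPM in NTC, 407.5, 365 and 273 CPM in crXCR1, and 427, 399.9 and 268 CPM in crSUGP1 libraries. The paired differences were 0.09 (adjusted p = 0.226) and 0.06 (adjusted p = 0.408). CCN2 differed by 0.05 and 0.10 (adjusted p = 0.51 and 0.139). EDN1 and AXL likewise did not pass, at -0.02 and 0.08 and at -0.12 and -0.05. F3 (0.20 against both, adjusted p = 0.23 and 0.199) was high in crSUGP1 library 3 alone, at 3.98 CPM beside 2.58 to 2.96 CPM in the other 8. TEAD1 passed the adjusted p against crXCR1 by 0.16 (0.0426) but not against NTC (0.0691), and AJUBA passed against neither (-0.04 and -0.15, adjusted p = 0.696 and 0.059). AL132780.3, which overlaps AJUBA on the same strand, had a mean of 13.8 CPM in crSUGP1, beside 23.8 CPM in NTC and 24.0 CPM in crXCR1. The paired adjusted p of AL132780.3 was 1.52e-07 and 1.26e-07. Whether its reads enter the AJUBA count was not tested.

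The immediate early genes were led by IER2 at 40.1, JUNB at 28.8 and EGR1 at 23.4 CPM per kb in NTC, with NR4A1 at 3.36 and FOS at 3.19. NR4A2, FOSB, EGR2, EGR3 and NR4A3 were all under 1 CPM per kb, with NR4A3 the lowest at 0.167. EGR1, EGR2 and EGR3 are zinc-finger factors, FOS, FOSB and JUNB are subunits of AP-1, IER2 is a small nuclear regulator, and NR4A1, NR4A2 and NR4A3 are orphan nuclear receptors that share a DNA-binding domain.

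NR4A3 (chromosome 9, 99821855 to 99866891, plus strand) was at 0.979, 1.30 and 0.879 CPM in NTC, 0.944, 1.05 and 0.923 CPM in crXCR1, and 2.07, 2.28 and 1.12 CPM in crSUGP1 libraries. The crSUGP1 libraries of experiments 1 and 2 were clearly above all controls, whereas that of experiment 3 was within the NTC range. Without the block the log2 fold changes were 0.81 (SE 0.25, adjusted p = 0.193) and 0.92 (SE 0.25, adjusted p = 0.123). In the paired fit they were 0.80 (SE 0.15, adjusted p = 0.00232) and 0.88 (SE 0.15, adjusted p = 9.51e-04), so NR4A3 was called against both controls. The within-experiment differences from NTC were 1.08, 0.81 and 0.35. Without experiment 3 the unpaired fit also called NR4A3, at 0.95 (adjusted p = 0.00277) and 1.13 (adjusted p = 0.00101). DESeq2, which had no block, called NR4A3 higher against crXCR1 (0.92, adjusted p = 0.0281).

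NR4A1 rose by a smaller amount and without overlap. It was at 25.4, 24.2 and 23.9 CPM in NTC, 24.4, 23.4 and 22.1 CPM in crXCR1, and 30.3, 33.5 and 26.8 CPM in crSUGP1 libraries. Its paired log2 fold changes were 0.30 (adjusted p = 0.00358) and 0.37 (adjusted p = 5.28e-04), both under the fold minimum. Of the 31 tested members, VCL, THBS1 and NR4A1 (9.68%) had all 3 crSUGP1 libraries above all 6 controls, against 6.36% of all genes, and CNN1 (3.23%) had them below, against 6.69%. NR4A2 passed the adjusted p against crXCR1 alone (0.44, adjusted p = 0.036), with 0.24 (adjusted p = 0.259) against NTC.

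EGR3 went the other way from the NR4A genes. It was at 0.737, 0.776 and 1.32 CPM in NTC, 0.758, 0.684 and 1.25 CPM in crXCR1, and 0.474, 0.521 and 0.992 CPM in crSUGP1 libraries. The groups overlapped, but within each experiment the crSUGP1 library was the lowest. The paired log2 fold change was -0.52 (adjusted p = 0.0195) against NTC, which was called, and -0.45 (adjusted p = 0.031) against crXCR1, which was under the fold minimum. Without the block the adjusted p was 0.59 and 0.561. A transcript on the other strand that overlaps EGR3, AC055854.1, had a mean of 0.578 CPM in crSUGP1, beside 0.863 CPM in NTC and 0.913 CPM in crXCR1, a paired adjusted p of 0.014 and 0.00487, and reads of the EGR3 locus cannot be told apart by strand here. EGR1 and EGR2, by contrast, lay above both controls on average (0.15 and 0.20, and 0.35 and 0.23, in the paired fit) with no adjusted p under 0.05.

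FOS was at 8.21, 8.03 and 14.2 CPM in NTC, 7.20, 8.54 and 14.3 CPM in crXCR1, and 9.67, 10.2 and 15.8 CPM in crSUGP1 libraries. Within every experiment the crSUGP1 library was the highest of the 3. The paired differences were 0.24 (adjusted p = 0.0302) and 0.27 (adjusted p = 0.0136). FOSB, at 1.79 to 2.86 CPM, was higher against NTC (0.41, adjusted p = 0.0127) but not past the threshold against crXCR1 (0.25, adjusted p = 0.0827). FOSB overlaps ERCC1, a far more abundant DNA repair gene on the other strand. ERCC1 had means of 144, 139.9 and 142 CPM in NTC, crXCR1 and crSUGP1. Even a small share of its reads, if misplaced, would weigh on the FOSB count, which was not tested. JUNB (0.10 and 0.06) and IER2 (-0.10 and -0.02) did not pass in the paired fit.

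Neither fit called a member for crXCR1 against NTC. The members' median difference there was -0.01, and 13 of 31 were higher, beside 10478 of all 21071 genes. The differences ranged from -0.24 for NR4A2 to 0.28 for ACTA2, and none of the 31 had an unadjusted p under 0.05 in the edgeR fit with guide alone, beside 1.34% of all genes. DESeq2 also called 0 members in this comparison.

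The experiment in which a library was made moved many of these genes more than the guide did. The test of the experiment, with guide in the model, called a gene at an adjusted p of at most 0.05 and a fitted range of at least 0.5 on the log2 scale, and 12.1% of all genes were called. Of the 31 members, 8 were called: 6 of 10 immediate early genes, 2 of 11 YAP-TEAD genes and 0 of 10 contractile genes. The median fitted range between experiments was 0.66 for immediate early genes, 0.31 for YAP-TEAD genes and 0.20 for contractile genes, beside 0.21 for all genes. Over the members, the experiment accounted for a median of 64.3% of the variance on the log2 scale and the guide for 25%, beside 44% and 22.9% over all genes.

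**Figure D3:**
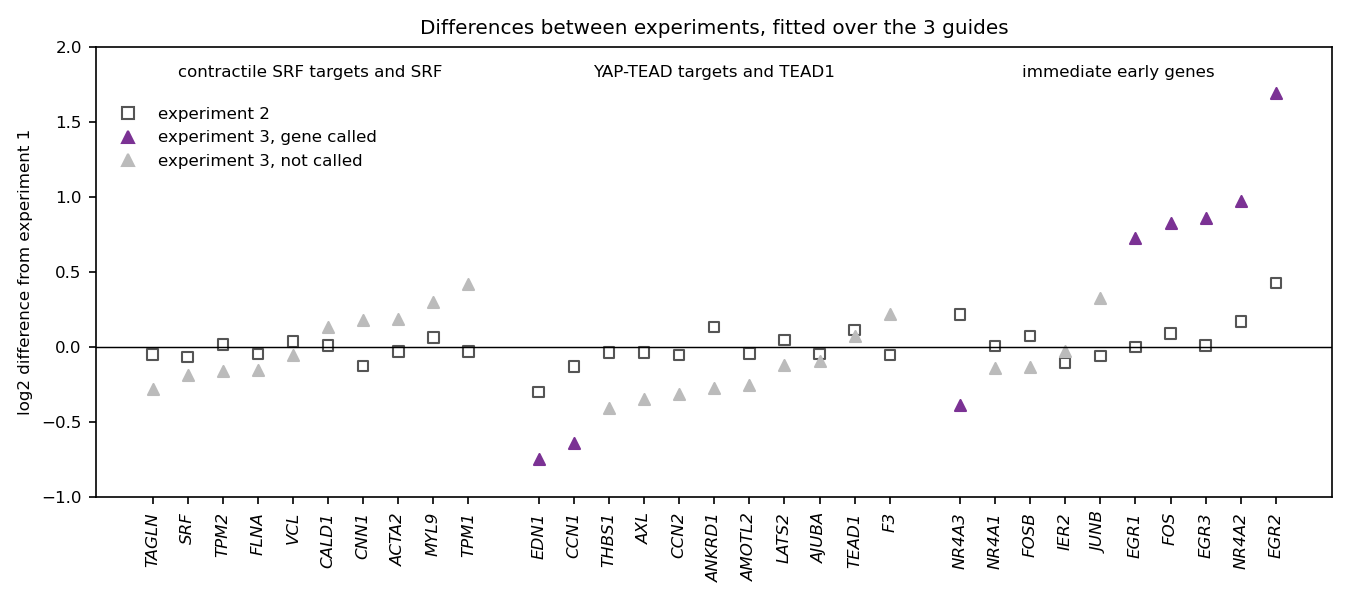
Fitted log2 difference of experiment 2 (open squares) and experiment 3 (triangles) from experiment 1 for the 31 tested members, sorted within each group. Purple triangles mark the 8 genes called. EGR2 reached 1.69 and NR4A2 0.97 in experiment 3, whereas EDN1 and CCN1 fell to -0.75 and -0.64.

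Of the 6 immediate early genes called, all but NR4A3 were highest in experiment 3. EGR2 had a mean of 0.614, 0.828 and 2.02 CPM in experiments 1, 2 and 3, EGR1 of 61.0, 61.4 and 101.2 CPM, and NR4A2 of 2.90, 3.24 and 5.66 CPM. EGR3 (0.656, 0.660 and 1.19 CPM) and FOS (8.36, 8.91 and 14.8 CPM) were likewise high in experiment 3. NR4A3 had its lowest mean there, at 1.33, 1.54 and 0.974 CPM (adjusted p = 0.0181, fitted range 0.60). Its crSUGP1 libraries differed most between experiments (2.07, 2.28 and 1.12 CPM) and its crXCR1 libraries little (0.944, 1.05 and 0.923 CPM). NR4A3 was not called between experiments by DESeq2, without NTC library 2 or without crSUGP1 library 3, whereas EGR1, EGR2, EGR3, FOS and NR4A2 were called in each of those fits. The 3 libraries of experiment 3 lay above the other 6 for EGR1, EGR2, EGR3, FOS, JUNB and NR4A2, that is, 6 of the 10 immediate early genes.

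Among the YAP-TEAD genes, the 2 that were called were lowest in experiment 3. EDN1 had a mean of 33.9, 27.6 and 20.2 CPM in experiments 1, 2 and 3 (adjusted p = 1.7e-07) and CCN1 of 413, 378 and 265 CPM (adjusted p = 2.51e-07). CCN1, CCN2, AXL and EDN1 had all 3 libraries of experiment 3 below the other 6, no YAP-TEAD gene had them above, and the other 7 overlapped, with F3 at its highest mean in experiment 3 (2.75, 2.66 and 3.24 CPM). Over all members, experiment 3 lay above the others for 9 of 31 and below for 7 of 31, against 14.7% and 15.8% of all genes. For CCN1 and EDN1 the experiment accounted for 97.3% and 97.4% of the variance on the log2 scale. The labels give no difference between the experiments, and what set experiment 3 apart was not tested.

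CNN1, JUNB and IER2 lie between SUGP1 and the end of the short arm of chromosome 19. The 523 genes there with a mean of at least 1 CPM had a median log2 fold change of -0.18 against NTC and -0.19 against crXCR1, beside 0.01 for crXCR1 against NTC. CNN1 was the lowest of them in both crSUGP1 comparisons. The 10 such genes nearest to CNN1 ranged from -0.27 to -0.04 against NTC (median -0.17) and from -0.46 to -0.06 against crXCR1 (median -0.23), so that CNN1 at -0.90 and -1.07 was below all of its neighbours. JUNB (0.08 and 0.04) and IER2 (-0.11 and -0.02) lay above the median of the arm. How much of the lower level of CNN1 goes with the arm was not tested. The remaining members, THBS1 and NR4A3 among them, lie elsewhere in the genome.

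**Figure D4:**
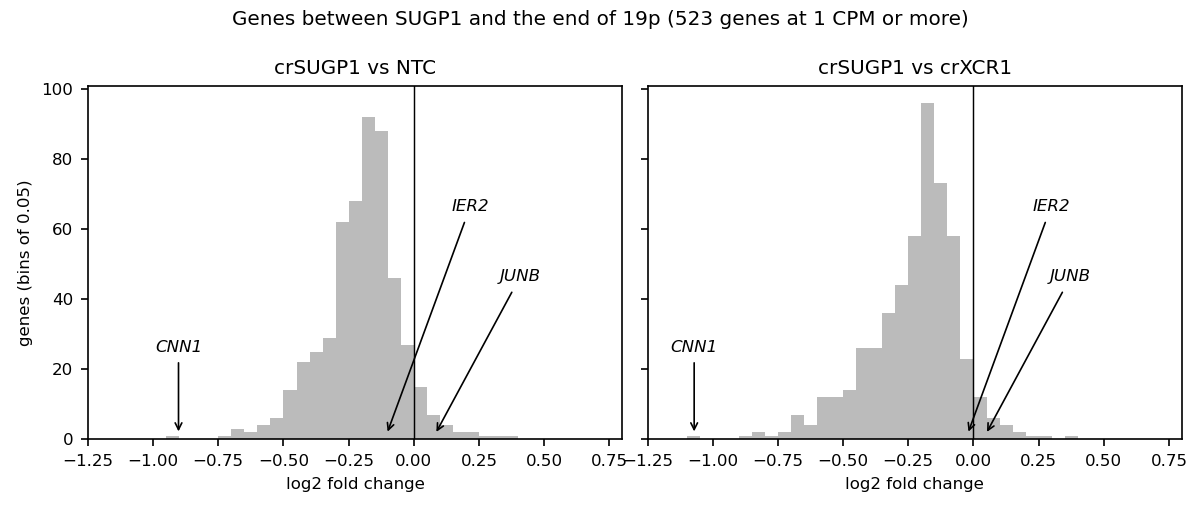
Log2 fold change (bins of 0.05) of the 523 genes between SUGP1 and the end of 19p with a mean of at least 1 CPM, against NTC and against crXCR1. Arrows mark the members that lie there: CNN1 is at the lower end (-0.90 and -1.07), while IER2 and JUNB are above the medians of -0.18 and -0.19.

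Further genes of the same pathways were counted from lists. The lists held 18 Hippo kinases and TEAD partners, 12 tested further YAP-TEAD targets and 12 tested SRF cofactors and actin regulators. They also held 19 further cytoskeletal SRF targets and 23 tested further immediate early genes. Without the block, edgeR called 0 of these genes in any comparison, beside 0.783% of all genes against NTC and 0.774% against crXCR1. At an unadjusted p under 0.05 against NTC there were 5, 0, 0, 1 and 5 of the listed genes, and against crXCR1 4, 1, 2, 2 and 7, beside 13.2% and 16.1% of all genes. YAP1, the coactivator itself, had a mean of 132, 131 and 137 CPM in NTC, crXCR1 and crSUGP1, and its relative WWTR1 (TAZ) of 37.6, 35.3 and 40.0 CPM. The median log2 fold changes of the lists against NTC were 0.07, -0.01, 0.05, -0.03 and 0.12 in that order, and against crXCR1 0.09, 0.01, 0.01, -0.01 and 0.14.

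In the paired fit, 3 genes of these lists were called, all from the further immediate early genes. Against NTC 2 were lower, and against crXCR1 2 were lower and 1 higher. The paired fit called 2.85% of all genes against NTC and 3.9% against crXCR1. JUND, an AP-1 subunit, had a mean of 57.7 CPM in crSUGP1, beside 83.7 CPM in NTC and 90.3 CPM in crXCR1, with paired fold changes of -0.52 (adjusted p = 0.00592) and -0.63 (adjusted p = 0.00117). KLF2, a Krüppel-like factor responsive to shear stress, fell from 11.5 and 11.3 CPM to 7.60 CPM (-0.63, adjusted p = 7.9e-04, and -0.60, adjusted p = 9e-04). Both genes lie, as CNN1 does, between SUGP1 and the end of 19p, where 4 genes of these lists were found, and the other 2 of them, CNN2 and TPM4, were at -0.08 and -0.27 against NTC. DUSP5, a phosphatase of ERK, rose against crXCR1 (0.68, adjusted p = 3.07e-06), from 17.7 to 28.3 CPM, with 21.0 CPM in NTC.

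Genes on the other strand overlap 18 of the 32 members, and for 11 of these the overlapping gene reached 10% or more of the member's own level. PCSK7 beside TAGLN (58.7 and 59.6 CPM in crSUGP1 and NTC), AP3M1 beside VCL (63.0 and 54.9 CPM) and HOOK2 beside JUNB (26.0 and 31.1 CPM) were among them. NR4A1AS, antisense to NR4A1, had a mean of 5.77 CPM in crSUGP1, beside 4.56 CPM in NTC and 4.50 CPM in crXCR1 (paired adjusted p = 0.0111 and 0.00607), the same direction as NR4A1. CNN1 had no overlapping gene, and STX17-AS1 beside NR4A3 was at 0.241 CPM against 1.28 CPM for NR4A3.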

How the data were processed

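PolyA RNA from 9 libraries of U-2 OS cells was analysed, 3 per guide, with groups taken from the sample titles. The values the authors deposited are raw, unnormalized counts of read pairs per gene (exons alone), made with SeqMonk after alignment to GRCh38. Per the submitters' processing notes, STAR 2.7.9a, Trim Galore 0.6.7 with cutadapt 2.4, and FastQC 0.11.5 were used before counting, and DESeq2 1.32.0 under R 4.1.0 after it. The strand setting is not given in the sources used here, so overlapping genes on opposite strands may share counts.

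Of 38179 entries, 33 repeats of a name were dropped. The 21071 genes that exceeded a log2 CPM of -2 in 1 library or more were scaled by TMM and fitted over all 9 libraries with edgeR 4.0.16 (quasi-likelihood, R 4.3.3) with guide as the sole term, leaving 6 residual degrees of freedom, and p-values were adjusted by Benjamini-Hochberg over all genes tested. Calls needed an adjusted p no higher than 0.05 and a log2 fold change no smaller than 0.5 in either direction. Exon lengths for CPM per kb were those of all annotated exons of a gene in GENCODE, merged. A permutation of 3 libraries against 3 cannot reach an exact p below 0.10. Libraries held 68712738 to 107952835 counts, so genes near the minimum have the widest errors. The scripts were tested on simulated data.

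According to the study's methods, libraries with the same number share an experiment. Deviations from the group means correlated at 0.483 to 0.893 over the 9 pairs with the same number and 16793 genes. The 18 pairs with different numbers correlated at -0.843 to 0.642. These ranges overlap, and deviations cancel within a group, so the sets of pairs are not independent. The correlations by themselves do not settle which libraries share an experiment. The replicate block, with 4 residual degrees of freedom, rests on the matching of numbers and is given beside the results it changes. The replicates of each guide differed by more than sampling noise.

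The members and lists were chosen with earlier results of these data known, among them the lower CNN1 and the tendency of THBS1 and NR4A3, which are not independent evidence. All members are named, and from each further list up to 4 called genes. Marker lists cover mesenchymal, smooth muscle, epithelial, endothelial and leukocyte genes. Alternatives were DESeq2 1.42.0, other filters, scalings and thresholds, 6 libraries, the block, and fits without a library or an experiment.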

Additional observations from a re-analysis of the deposited data

How the results depend on the processing

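CNN1 was the member called for crSUGP1 against NTC and against crXCR1, 1 gene in each. The replicate block raised these counts to 3 (CNN1, NR4A3 and EGR3) and 3 (CNN1, NR4A3 and THBS1), and changed no other member's call. The block without a fold minimum gave 12 and 13 members, and the block without experiment 3 gave 4 and 3. DESeq2 called 1 and 3 (CNN1, THBS1 and NR4A3). Without 1 library at a time, 0 to 2 members were called against NTC and 1 to 2 against crXCR1. The 0 came without crSUGP1 library 2, and the counts of 2, with NR4A3 added, without crSUGP1 library 3. Without experiment 1 the counts were 0 and 0, without experiment 2 also 0 and 0, and without experiment 3 they were 4 (CNN1, ACTA2, NR4A2 and NR4A3) and 3. For crXCR1 against NTC, every alternative gave 0 members. Of the members called between experiments, 8 in the reported fit, 20 passed without a fold minimum, 7 with DESeq2 and 7 to 8 without 1 library at a time, NR4A3 being the member lost.

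Over all genes, 165 were called against NTC and 163 against crXCR1. The block gave 601 and 821, the block without a fold minimum 3305 and 4577, the block without experiment 3 gave 532 and 616, no fold minimum 265 and 301, fits to 6 libraries 107 and 102, and DESeq2 243 and 271. Without 1 library at a time the counts were 92 to 166 and 82 to 157. Without experiment 1 they were 2 and 1, without experiment 2 they were 2 and 2, and without experiment 3 they were 413 and 484. For crXCR1 against NTC the count of 0 became 1 with the block, 1 without experiment 3, 3 with the block and no fold minimum, and 2 with the block without experiment 3. Between experiments, 2560 genes became 8594 without a fold minimum and 1694 under the stricter filter, which tests fewer genes.

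Of the single fold changes of members, 0 reversed among those past the threshold in the reported fit, 5 lost and 41 gained a call over all alternatives. The gained calls include those of the block without a fold minimum, where changes below 0.5 count, such as TPM1 at -0.24 against NTC. What caused the lost and gained calls was not tested. The fits without experiment 1, 2 or 3 each kept 6 libraries, with 2, 2 and 413 of all genes called against NTC.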
